A study of Homo sapiens with 12 samples.

Results

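The protein families whose gene symbols start with SRSF, HNRNP, SF3A, SF3B and SNRP were measured in HK-2 cells exposed to a low dose of the compound called Aa. Members were the probe sets that the array annotation maps to a single gene with such a current symbol and whose mean log2 value over all 12 arrays was at least 4. The annotation held 158 such probe sets of 53 genes, and 131 probe sets of 49 genes were past this limit, out of 19623 probe sets and 10791 genes in all. They were 36 probe sets of 10 SRSF genes, 60 of 19 HNRNP genes, 7 of 3 SF3A genes, 11 of 6 SF3B genes and 17 of 11 SNRP genes. Just inside the limit were single probe sets of HNRNPC (4.31), SRSF12 (4.55) and SNRPA1 (4.57), and just outside were single probe sets of SRSF4 (3.9993), SRSF1 (3.59) and SRSF5 (3.58). HNRNPA3P1, HNRNPD-DT, SNRPN and SNRPF-DT had no probe set past the limit, with means between 2.23 and 3.54. SRSF2, SRSF9 and HNRNPH2 were read by probe sets that the annotation gives to several genes and were therefore not members, as were 25 such probe sets in all.

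SRSF proteins, also called SR proteins, bind enhancer sequences in exons through RNA recognition motifs and recruit the splicing machinery through a domain rich in arginine and serine. The hnRNP proteins coat nascent transcripts, and many of them silence exons that SR proteins favour. SNRP proteins build the small nuclear ribonucleoproteins, among them the Sm ring that is common to most of them, and the SF3a and SF3b complexes anchor the U2 particle at the branch point of the intron. Many SRSF and HNRNP genes are known to make several transcripts, including forms with an early stop codon that nonsense-mediated decay removes.

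HK-2 is an immortalised line from the proximal tubule of the human kidney. There were 4 groups of 3 arrays: cells with low-dose Aa and control cells, each at 24 h and at 48 h after exposure. All cells were kept in medium with EGF, hydrocortisone and insulin and treated near confluence, and control cells received a vehicle. Neither the vehicle, nor what Aa stands for, nor its dose as a number could be read from the labels. They name biological replicates with no account of separate cultures, and a p-value here covers no more than the spread among the arrays of a group.

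The deposited values were log2 intensities normalised with GCRMA, so that a difference of 1 is a 2-fold change. The 12 arrays had medians of 2.93 to 3.01 and correlated with r between 0.994 and 0.997 within groups. Of 16 marker genes of epithelium and renal tubule on the array, 9 were past the limit, among them KRT8, KRT18, EPCAM, CDH6 and PAX8, while AQP1, LRP2, CUBN and ANPEP of the differentiated proximal tubule were below it. Summed over the 16 genes, the log2 values were 112 to 115 on the Aa arrays and 118 to 119 on the control arrays at 24 h. At 48 h the sums were 112 to 114 with Aa and 118 in controls, so the groups lay apart both times. Single markers went both ways at 48 h. KRT8 averaged 12.28 with Aa and 11.78 in controls, and KRT18 averaged 13.12 and 12.77. CDH6 averaged 11.00 with Aa and 12.49 in controls, and SLC3A1 averaged 7.70 and 9.57. No marker of leukocytes (0 of 3) or endothelium (0 of 4) was past the limit. Of 5 fibroblast markers 2 were, COL1A1 and DCN, and the sum of the 5 was 27.2 to 28.1 with Aa and 28.4 to 29.5 in controls at 24 h. At 48 h this sum overlapped, at 27.4 to 28.4 with Aa and 27.9 to 28.5 in controls. Control probe sets for 28S ribosomal RNA averaged 7.28 with Aa and 6.37 without it at 24 h, and 7.56 with Aa and 6.74 without it at 48 h. The part of any of these differences in the results that follow was not tested. In bulk RNA, fewer cells of a kind and less RNA per cell cannot be told apart.

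At 24 h, 10 of the 49 genes were called changed (adjusted p under 0.05 in limma's model, 2-sided), 9 of them higher and 1 lower with Aa. That is 20.4% of the family genes, against 23.1% of all genes tested. Of all genes, 10.3% were called higher and 12.8% lower. The median log2 change over the 49 genes was 0.10, and over all genes -0.02. At 48 h, 13 genes were called, 10 higher and 3 lower, or 26.5% against 37.8% of all genes, of which 17.8% were higher and 20.1% lower. The median change was then 0.12, and over all genes -0.00. The calls were therefore no more frequent in these families than among all genes, and more of them were upward than downward at both times.

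The changes were small. The median size of the log2 change, with its sign dropped, was 0.13 in the families and 0.24 over all genes at 24 h, and 0.23 against 0.32 at 48 h. One gene, SRSF6, changed at least 2-fold at either time, a size that 7.09% of all genes reached at 24 h and 11.7% at 48 h. The genes ranged from -0.44 to 1.15 at 24 h and from -0.72 to 1.07 at 48 h. All 3 Aa arrays lay apart from all 3 control arrays in 18 genes at 24 h, 14 above and 4 below, or 36.7% against 40.5% of all genes. At 48 h this held for 21 genes, 16 above and 5 below, or 42.9% against 48.4%. In each of the called genes the arrays of the groups did not overlap. The 3 pairs of equal number therefore had to go the same way, and their agreement adds nothing.

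**Figure D1:**
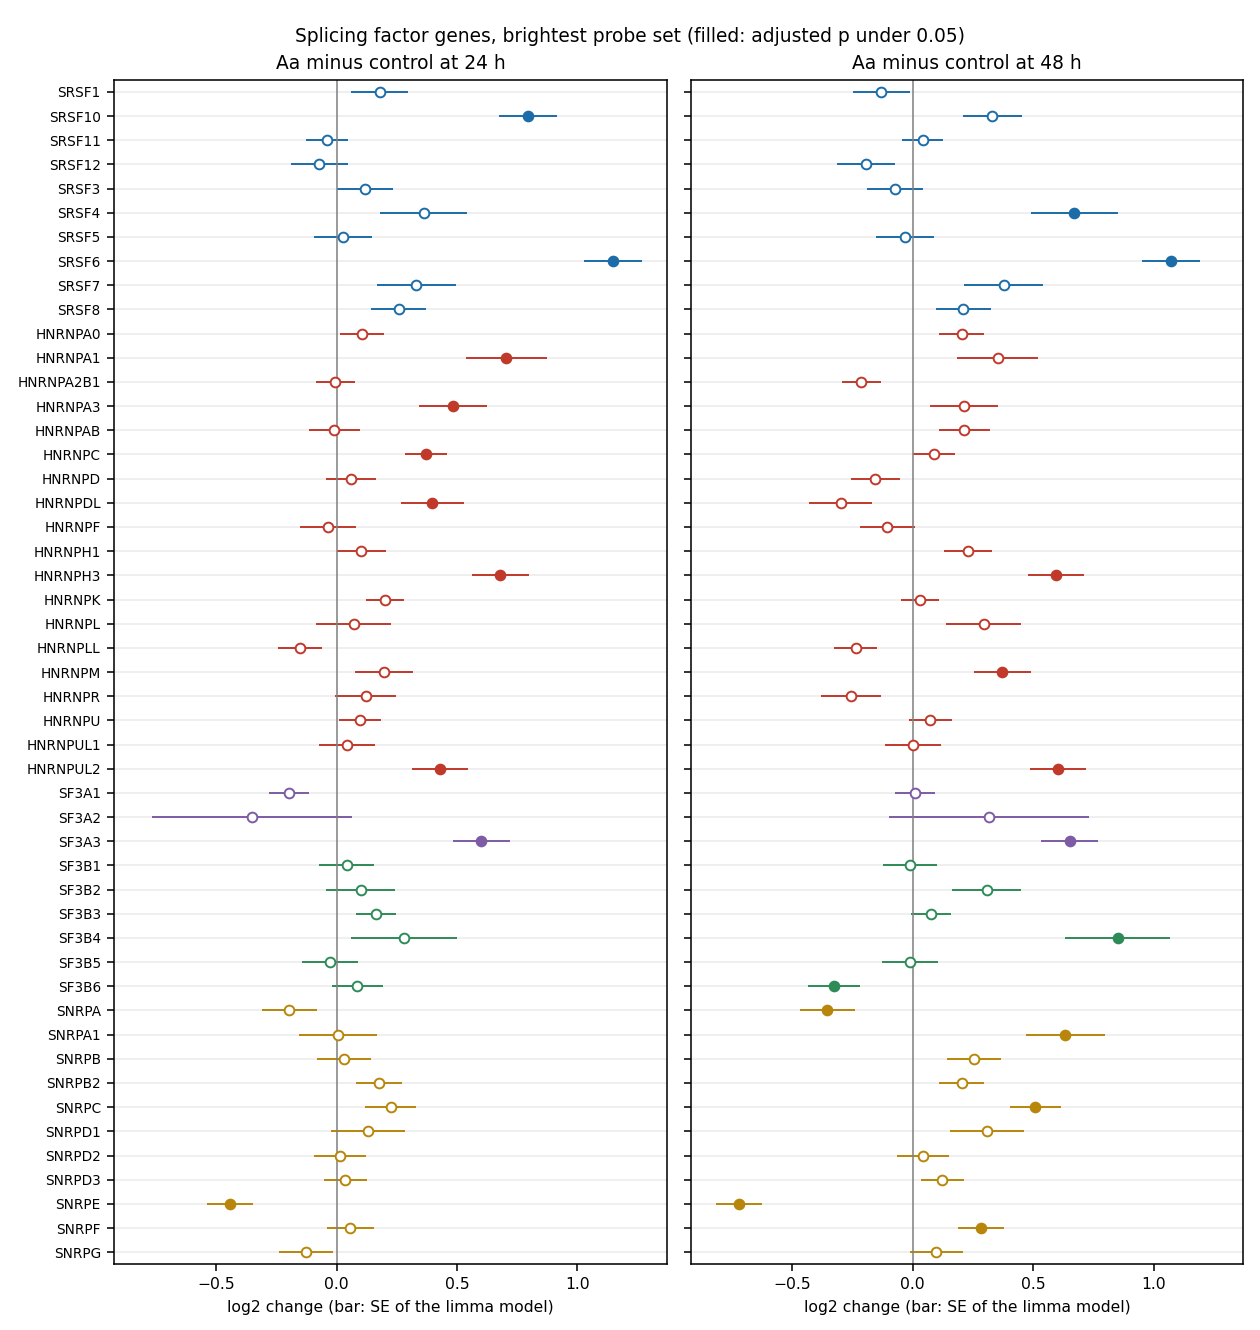
Log2 change (Aa minus control) of the 49 family genes at 24 h (left) and 48 h (right), each by its brightest probe set, with the standard error of the limma model as a bar. Filled points have an adjusted p under 0.05 over all 10791 genes: 9 to the right and 1 to the left of zero at 24 h, 10 to the right and 3 to the left at 48 h.

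Arrays with the same replicate number deviated together from their group means over all features, so the number was also used as a block. Over the family members alone this was less clear, since the r of such pairs and of other pairs overlapped. The blocked fit called 15 genes at 24 h (13 higher, 2 lower), against 41.3% of all genes (18.5% higher, 22.8% lower). At 48 h it called 24 (18 higher, 6 lower), against 54.8% of all genes (26.7% higher, 28.1% lower). It added HNRNPK, SF3B4, SRSF4 and SRSF7 to the higher genes and SF3A1 to the lower genes at 24 h. At 48 h it added HNRNPA0, HNRNPAB, SF3B2, SNRPB, SNRPB2, SNRPD1, SRSF7 and SRSF10 to the higher and HNRNPA2B1, HNRNPLL and HNRNPR to the lower genes. Without replicate 1 in all groups 1 gene was called at 24 h and 4 at 48 h, without replicate 2 the counts were 6 and 11, and without replicate 3 they were 5 and 6. Such fits rest on fewer arrays, and the shares of all genes called in them are not given. Whether the families lose more calls than other genes cannot be read from these counts, here or below. The size of the Aa change in each pair of equal number was also gauged by a slope. Over all genes it was 1.06, 0.65 and 1.06 in pairs 1, 2 and 3 at 24 h. The 48 h values were 1.10, 0.72 and 1.01. Over the family members they were 1.01, 0.68 and 1.02 at 24 h, then 0.87, 0.81 and 1.07 at 48 h. Pair 2 was thus the lowest each time. Its part in these counts and in single genes was not tested.

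The calls at the 2 times overlapped in part. SRSF6, HNRNPH3, HNRNPUL2 and SF3A3 were higher at both times, which is 44.4% of the genes higher at 24 h and 40% of those higher at 48 h. Over all genes the shares were 74.5% and 43.0%. SNRPE was lower at both, the only family gene lower at 24 h and 1 of 3 lower at 48 h. Over all genes 71.6% of those lower at 24 h and 45.9% of those lower at 48 h were lower at both. No family gene was called in opposite directions and 31 were called at neither time, counts given without shares over all genes.

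Among the SR proteins, SRSF6, which binds exonic enhancers and promotes exon inclusion, had the largest change by brightest probe set. At 24 h it read 12.39, 12.15 and 12.13 on the Aa arrays of replicates 1, 2 and 3, against 11.13, 10.98 and 11.11 on the control arrays. At 48 h it read 12.30, 12.31 and 12.37 with Aa, against 11.43, 11.33 and 11.02 in controls. All Aa arrays were above all control arrays, with 1.00 between the nearest at 24 h and 0.87 at 48 h. The log2 change was 1.15 ± 0.12 (SE, n = 3 each, adjusted p = 0.00017) or 2.22-fold at 24 h and 1.07 ± 0.12 (adjusted p = 0.000132) or 2.10-fold at 48 h. SRSF6 passed the threshold under every alternative run at both times. Its second, dimmer probe set gave changes of -0.06 and 0.12 that were not called. Averaged over both probe sets the gene changed by 0.55 and 0.60, called at both times. Both have names that mark shared sequence, so leaving out such names could not be applied.

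SRSF10, a splicing repressor when dephosphorylated, as in heat-shocked cells, was higher at 24 h. Its values were 12.43, 12.08 and 12.48 with Aa, against 11.57, 11.46 and 11.57 in controls, and the lowest Aa array lay 0.51 above the highest control array. The change was 0.79 ± 0.12 (adjusted p = 0.00137), and the call was lost without replicate 1 in all groups and without probe sets of shared-sequence names. At 48 h the values were 11.68, 11.87 and 12.01 with Aa, against 11.54, 11.53 and 11.49 in controls. The groups again did not overlap, but the change of 0.33 ± 0.12 missed the threshold (adjusted p = 0.052, from 0.00736 to 0.791 under the alternatives, and 0.0274 with the replicate block).

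SRSF4, one of the longest SR proteins, was called at 48 h. It read 10.50, 10.21 and 10.45 with Aa, against 10.07, 9.37 and 9.71 in controls, a change of 0.67 ± 0.18 (adjusted p = 0.0143). The control arrays were spread widely, and replicate 2 was the lowest in both groups. At 24 h the values of 10.68, 10.16 and 10.47 with Aa overlapped those of 10.20, 9.99 and 10.04 in controls (0.36 ± 0.18, adjusted p = 0.176, from 0.0154 with the replicate block to 0.522 under the alternatives). Averaged over its 3 probe sets, SRSF4 turned to -0.34 at 24 h and to -0.18 at 48 h, neither called. Its 48 h call was also lost without replicate 1 of the Aa arrays, without replicate 2 of the controls and without replicate 3 in all groups. By their brightest probe set, SRSF1, SRSF3, SRSF5, SRSF7, SRSF8, SRSF11 and SRSF12 were called at neither time.

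Of the HNRNP genes, 6 of 19 were called higher and none lower at 24 h (31.6%), and 3 were called higher and none lower at 48 h (15.8%). Of all genes 10.3% were higher and 12.8% lower at 24 h, and 17.8% and 20.1% at 48 h. The blocked fit called 5 HNRNP genes higher and 3 lower at 48 h. HNRNPH3, of the hnRNP H group that binds runs of guanine, was higher at both times. At 24 h it read 12.54, 12.42 and 12.68 with Aa, against 11.90, 11.88 and 11.81 in controls. The 48 h arrays read 12.48, 12.45 and 12.52 with Aa, against 11.97, 12.07 and 11.63 in controls. The arrays of the groups did not overlap, and the changes were 0.68 ± 0.12 (adjusted p = 0.00255) and 0.59 ± 0.12 (adjusted p = 0.00299). Each of its 4 probe sets was higher at both times, by 0.34 to 0.68 at 24 h, with 3 called, and by 0.59 to 0.93 at 48 h, with 4 called. The gene call was lost at both times without replicate 1 in all groups (adjusted p up to 0.0745 at 24 h and 0.0606 at 48 h). All probe sets of HNRNPH3 have shared-sequence names, so leaving out such names could not be applied.

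HNRNPUL2, a relative of the scaffold protein hnRNP U, was also higher at both times. It read 9.34, 9.22 and 9.28 with Aa, against 8.96, 8.64 and 8.94 in controls at 24 h (0.43 ± 0.12, adjusted p = 0.0223). Its 48 h values were 9.17, 9.40 and 9.23 with Aa, against 8.80, 8.68 and 8.51 in controls (0.60 ± 0.12, adjusted p = 0.00265). The nearest arrays of the groups were 0.25 apart at 24 h and 0.37 apart at 48 h. At 24 h 7 alternatives ended the call, among them leaving out replicate 1 or 3 of the Aa arrays or replicate 2 of the controls (adjusted p up to 0.174). The 48 h call was lost without replicate 3 in all groups. Its second probe set changed by -0.11 and -0.00, neither called, and averaged over both the gene changed by 0.16 (not called) and 0.30 (called).

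HNRNPA1, which binds exonic silencers and antagonises SR proteins, had the largest change of the family at 24 h by brightest probe set. Its arrays read 11.69, 11.29 and 11.79 with Aa, against 10.85, 11.14 and 10.67 in controls, and replicate 2 of both groups nearly met. The change was 0.70 ± 0.17 (adjusted p = 0.0129). The change at 48 h was 0.35 ± 0.17, from 11.74, 11.33 and 11.48 with Aa against 11.31, 11.17 and 11.02 in controls, and was not called (adjusted p = 0.124). The name of this probe set (ending in _x_at) marks probes that match other sequences too, and HNRNPA1 is known to have many processed copies in the genome. The other 2 probe sets of the gene changed by -0.44 and -0.08 at 24 h, neither of them called, and the call was also lost without replicate 3 of the Aa or of the control arrays.

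HNRNPA3, a close relative of HNRNPA1, read 11.996, 11.95 and 11.63 with Aa, against 11.51, 11.26 and 11.36 in controls at 24 h (0.48 ± 0.14, adjusted p = 0.0319). HNRNPC, which binds uridine tracts in nascent transcripts, read 13.52, 13.61 and 13.77 with Aa, against 13.29, 13.24 and 13.25 in controls at 24 h (0.37 ± 0.09, adjusted p = 0.0121). HNRNPDL, related to the AU-rich element binder HNRNPD, read 13.19, 13.13 and 13.29 with Aa, against 12.80, 12.73 and 12.89 in controls at 24 h (0.40 ± 0.13, adjusted p = 0.0495). In these genes the lowest Aa array was above the highest control array, but none was called at 48 h, where the changes were 0.21, 0.09 and -0.30. The HNRNPDL call was near the threshold: 10 of 24 settings kept it, leaving out any array of the 24 h comparison ended it (adjusted p up to 0.25), and in the fit over probe sets it was missed (adjusted p = 0.0551). The HNRNPC call was lost without replicate 1, 2 or 3 in all groups, without probe sets of shared-sequence names and when its probe sets were averaged. The HNRNPA3 call was lost under 8 of its alternatives, among them without replicate 1 or 2 of the Aa arrays or replicate 2 or 3 of the controls (adjusted p up to 0.212).

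HNRNPM, which binds GU-rich sequence, was called at 48 h, where it read 13.09, 12.81 and 13.20 with Aa, against 12.77, 12.60 and 12.62 in controls. The groups were separated by the 0.05 between replicate 2 with Aa and replicate 1 of the controls. The change was 0.37 ± 0.12 (adjusted p = 0.0316). Leaving out probe sets with shared-sequence names moved the gene to a dim probe set at -0.021, and the call was lost without replicate 1 or 3 of the Aa arrays and without replicate 2 or 3 of the controls. The other 12 HNRNP genes, by their brightest probe set, were called at neither time, among them HNRNPU, HNRNPL, HNRNPF and HNRNPK.

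The U2-associated complexes moved unevenly. SF3A3, a subunit of SF3a, was higher at both times. It read 10.00, 9.89 and 10.24 with Aa, against 9.46, 9.31 and 9.57 in controls at 24 h. The values at 48 h were 9.81, 9.83 and 10.03 with Aa, against 9.23, 9.13 and 9.36 in controls. The groups did not overlap, and the changes were 0.60 ± 0.12 (adjusted p = 0.00519) and 0.65 ± 0.12 (adjusted p = 0.00197). Both calls were lost without replicate 1 in all groups (adjusted p up to 0.0969 and 0.0526) and under no other alternative that could be run for this gene. Its only probe set has a shared-sequence name, so leaving out such names could not be applied. The other SF3a subunits, SF3A1 and SF3A2, changed by -0.20 and -0.35 at 24 h and by 0.01 and 0.32 at 48 h, none of them called.

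In SF3b, SF3B4, which contacts the pre-mRNA near the branch point, was higher at 48 h. It read 10.18, 9.79 and 10.21 with Aa, against 9.43, 8.86 and 9.34 in controls, and replicate 2 was the lowest of both groups. The change was 0.85 ± 0.22 (adjusted p = 0.0116). At 24 h it was 0.28 ± 0.22 (adjusted p = 0.398, from 0.0193 with the replicate block to 0.77). SF3B6, the small subunit that touches the branch point adenosine, was lower at 48 h, where it read 12.99, 13.17 and 12.94 with Aa, against 13.28, 13.53 and 13.28 in controls. All Aa arrays were below all control arrays, by 0.10 at the closest, and the change was -0.33 ± 0.11 (adjusted p = 0.033). Leaving out replicate 1 or 3 of the Aa arrays or replicate 2 of the controls ended this call, and the SF3B4 call was lost without replicate 1 or without replicate 3 in all groups. The only SF3B4 probe set has a shared-sequence name, so leaving out such names could not be applied to it. SF3B1, SF3B2, SF3B3 and SF3B5 were called at neither time by their brightest probe set.

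Among the snRNP proteins, 1 of 11 (9.09%) was called at 24 h and 5 (45.5%) were called at 48 h, against 23.1% and 37.8% of all genes. SNRPE, a subunit of the Sm ring, was lower at both times. It read 13.47, 13.55 and 13.58 with Aa, against 13.98, 13.92 and 14.04 in controls at 24 h (-0.44 ± 0.10, adjusted p = 0.00817). The 48 h arrays read 12.93, 13.25 and 13.16 with Aa, against 13.80, 13.88 and 13.82 in controls (-0.72 ± 0.10, adjusted p = 0.000378). The nearest arrays of the groups were 0.33 apart at 24 h and 0.55 apart at 48 h, and the 24 h call was lost without replicate 1 or without replicate 3 in all groups. Its second probe set read 7.52, 7.77 and 7.60 with Aa, against 7.99, 7.95 and 8.17 in controls at 24 h, with a change of -0.41 (adjusted p = 0.0533, from 0.0186 with the replicate block to 0.309). It was lower at 48 h (-0.93, adjusted p = 0.000662).

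The other 6 genes of the Sm ring, SNRPB, SNRPD1, SNRPD2, SNRPD3, SNRPF and SNRPG, were not called lower at either time. At 24 h their changes were between -0.13 and 0.13 with none called. At 48 h they were all above 0, from 0.04 to 0.31, and SNRPF was called higher (0.28 ± 0.10, adjusted p = 0.0392). SNRPF read 11.96, 11.97 and 12.16 with Aa, against 11.67, 11.68 and 11.89 in controls, and 11 alternatives ended its call, among them leaving out replicate 1 or 3 of the Aa arrays at 48 h or replicate 1 or 2 of the controls (adjusted p up to 0.205).

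Proteins specific to the U1 and U2 particles went in both directions at 48 h. SNRPA1, the U2 A' protein, read 11.24, 10.99 and 11.37 with Aa, against 10.30, 10.59 and 10.81 in controls (0.63 ± 0.16, adjusted p = 0.0114). SNRPC, the U1 C protein, read 11.37, 11.34 and 11.56 with Aa, against 10.78, 10.86 and 11.12 in controls (0.51 ± 0.11, adjusted p = 0.0039). The Aa arrays were the higher ones in both genes without overlap. SNRPA, the U1 A protein, read 10.84, 10.96 and 11.06 with Aa, against 11.40, 11.07 and 11.46 in controls, and was lower (-0.35 ± 0.11, adjusted p = 0.032). Its replicate 3 with Aa and replicate 2 of the controls nearly touched, and leaving out replicate 1 or 2 of the Aa arrays or replicate 1 or 3 of the controls ended the call (adjusted p up to 0.308), as did centring each array on its median. At 24 h these 3 genes changed by 0.01, 0.23 and -0.20 and were not called. The bright SNRPA1 probe set and 2 others of its 4 rose at 48 h (0.63 to 0.88), and the dimmest changed by 0.20. Without replicate 1 in all groups the calls of SNRPA1 and SNRPC were lost, and without shared-sequence names SNRPA1 rested on its dimmest probe set.

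**Figure D2:**
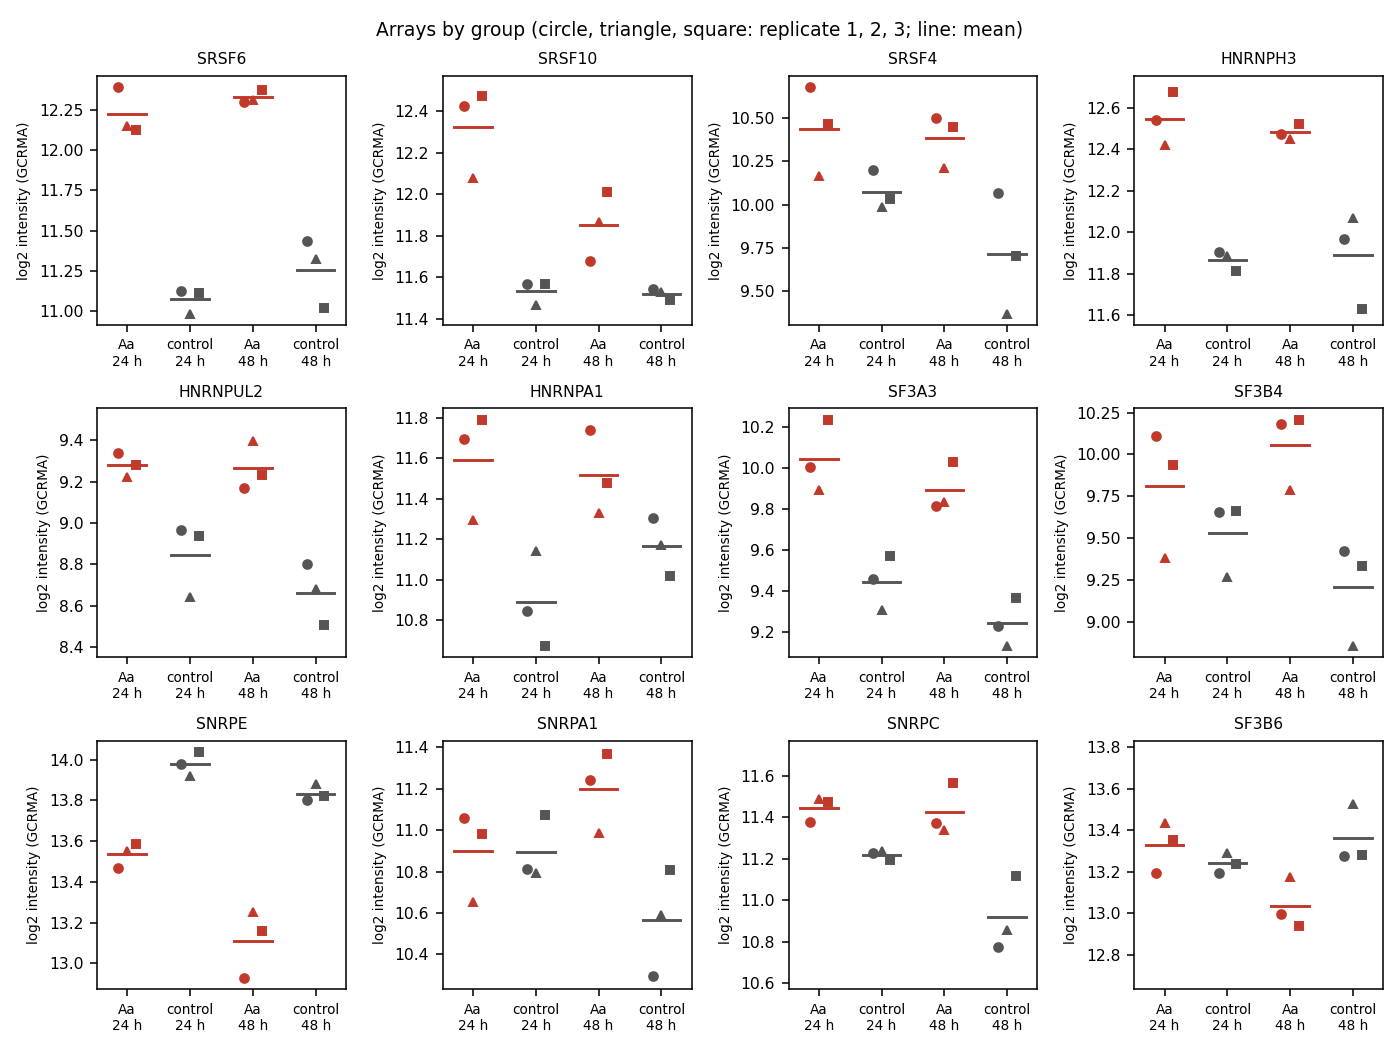
Log2 intensity of 12 family genes on each array, with Aa in red left of its control in grey at 24 h and at 48 h; symbols mark the replicate number and lines the group means, and each panel has its own scale. SRSF6, HNRNPH3, HNRNPUL2 and SF3A3 are higher and SNRPE is lower with Aa at both times without overlap, and in SF3B4 replicate 2 is the lowest array of every group.

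No family gene had an Aa effect that differed between 48 h and 24 h in the test of that difference (0 of 49 in limma, against 0.825% of all genes), where 5 genes had an unadjusted p under 0.05. The share of all genes under that unadjusted limit is not given, so this count does not set the families apart. The smallest adjusted p was 0.115, for HNRNPDL, whose effect at 48 h minus that at 24 h was -0.70. With the replicate block 3 genes passed, against 11% of all genes: HNRNPDL (-0.70), SF3B6 (-0.41) and SF3B4 (0.57). These 3 were each called at 1 of the times for the effect itself, and for them the difference depends on the block. For the other genes called at 1 of the times, neither fit showed a difference between the times.

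In the control cells, 48 h against 24 h, none of the 49 genes was called in limma, against 0.5% of all genes, and 9 had an unadjusted p under 0.05. For this count too the share of all genes is not given. The median change was -0.16, and over all genes -0.01, with 10 of 49 genes above 0. In 13 genes all control arrays at 48 h lay below all at 24 h and in none above, or 26.5% against 23.1% of all genes. With the replicate block 11 genes were lower and none higher, against 17.8% of all genes (8.69% higher, 9.09% lower): HNRNPAB, HNRNPU, SF3B2, SF3B4, SF3B5, SNRPC, SNRPD1, SNRPF, SNRPG, SRSF4 and SRSF7. These control arrays at 48 h also enter the comparison with Aa at 48 h. SNRPC, for example, was 0.30 lower in control cells at 48 h than at 24 h, and its change with Aa at 48 h was 0.51.

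Described per probe set, the families spanned a wider range of changes, while their median size, sign dropped, was 0.22 at 24 h and 0.24 at 48 h, against 0.26 and 0.32 over all probe sets. Of the 131 probe sets, 25 were higher and 3 lower at 24 h, or 21.4%, against 22.3% of all probe sets (10.9% higher, 11.4% lower). At 48 h 27 were higher and 8 lower, or 26.7%, against 33.9% of all (16% higher, 17.9% lower). The changes ran from -1.43 to 2.56 at 24 h and from -1.86 to 3.43 at 48 h. Both low ends were the dimmest probe set of HNRNPC, which passed the limit through the control arrays and so had to differ. It is also among the lower and the at least 2-fold probe sets counted here. A change of at least 2-fold was seen in 10 (7.63%) and 8 (6.11%) probe sets, against 8.40% and 12.02% of all probe sets. The blocked fit called 49 (40 higher, 9 lower) at 24 h, against 39.7% of all (18% higher, 21.7% lower), and 57 (41 higher, 16 lower) at 48 h, against 51.1% of all (24.6% higher, 26.5% lower). Without replicate 1 in all groups 7 and 15 were called, without replicate 3 in all groups 13 and 21, and without replicate 3 of the Aa arrays 23 at 48 h. Higher at both times were 13 probe sets and lower at both times 3, with no shares over all probe sets given. None was called for the difference between times or in control cells over time (against 0.392% and 0.117% of all), while the blocked fit called 11 and 22 (against 8.43% and 14.5% of all).

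Probe sets of a gene often disagreed. Of 35 genes with several, 16 (45.7%) had all of them on the same side of 0 at 24 h and 15 (42.9%) at 48 h, against 57.9% and 67.9% of the 5263 genes of the array with several. The median gap between the highest and lowest change within a gene was 0.72 at 24 h and 0.51 at 48 h, against 0.32 and 0.31 over all such genes. The families held many probe sets per gene, which widens such a gap and makes a shared direction rarer. At 24 h, 8 of 12 family genes with 2 probe sets had all of them on the same side of 0. With 3 this held for 5 of 11, and with 4 or more for 3 of 12. Over all genes the shares were 68.7%, 50.8% and 31.1%. At 48 h the family counts were 8, 3 and 4, against 77.3%, 62.5% and 43.0% of all genes. Among genes with 2 probe sets the median gap was 0.18 in the families and 0.21 over all genes at 24 h, and 0.20 against 0.21 at 48 h. With 3 probe sets it was 0.49 against 0.41 at 24 h and 0.51 against 0.38 at 48 h. With 4 or more probe sets (12 family genes) it was 1.31 against 0.70 at 24 h and 0.86 against 0.65 at 48 h. No test of these differences was made.

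A call therefore depended on the probe set that stood for the gene. By the brightest probe set 10 and 13 genes were called, and by any probe set 21 (42.9%) and 26 (53.1%). Over all genes 30.6% and 44.2% were called by any probe set, with fewer probe sets per gene than in the families. Called at 24 h by another probe set alone were HNRNPA2B1, HNRNPD, HNRNPLL, HNRNPU, SF3A1, SF3B1, SF3B3, SRSF1, SRSF7, SRSF8 and SRSF11. At 48 h these were HNRNPA0, HNRNPA2B1, HNRNPC, HNRNPD, HNRNPDL, HNRNPH1, HNRNPR, SF3B3, SRSF1, SRSF7, SRSF8, SRSF10 and SRSF11. HNRNPC entered only by its dimmest probe set, which passed the limit through the control arrays. Of the 60 probe sets with a plain name, 26.7% were called at 24 h and 33.3% at 48 h. Of the 71 whose name marks sequence shared between transcripts or genes, 16.9% and 21.1% were called. The same shares over all probe sets of the array were 25% and 35.8% with a plain name, and 18.9% and 31.5% with a shared one. The stretch of transcript that each probe set reads was not analysed here. In what follows the probe sets of a gene are numbered by falling mean log2 value, so that number 1 is the brightest.

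**Figure D3:**
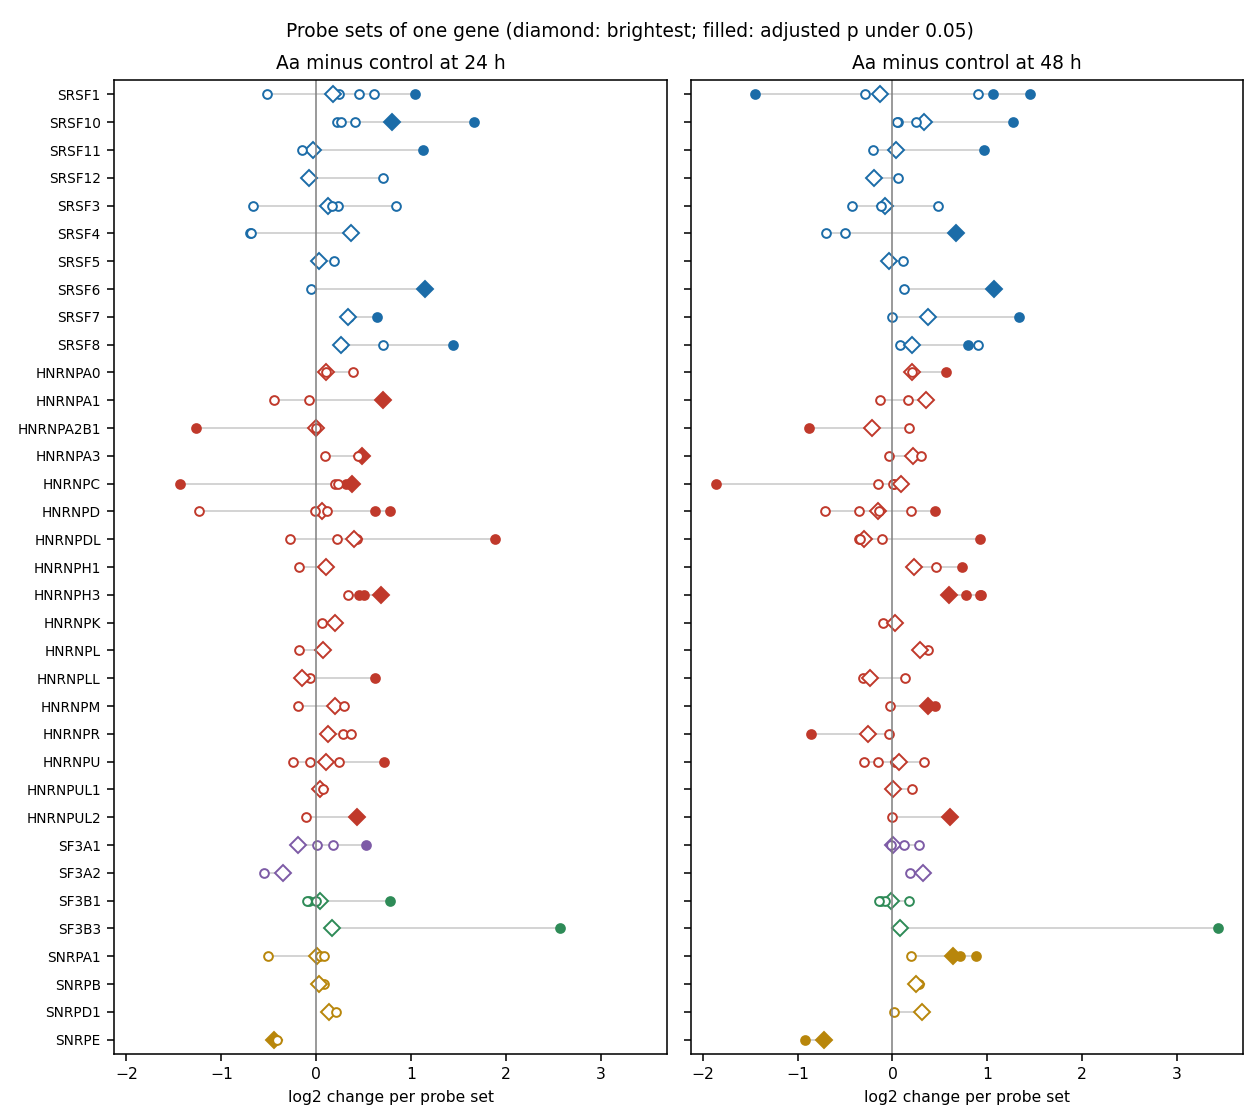
Log2 change (Aa minus control) of every probe set of the 35 family genes with several, at 24 h (left) and 48 h (right); diamonds are the brightest probe set of a gene, filled symbols have an adjusted p under 0.05 over all 19623 probe sets, and grey lines join the probe sets of a gene. SF3B3 holds the largest change, 2.56 and 3.43, next to a brightest probe set at 0.16 and 0.08, and SRSF1 has called probe sets on both sides of 0 at 48 h.

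SRSF1, the first SR protein described and a regulator of both constitutive and alternative splicing, had 7 probe sets past the limit. Numbers 1 to 3 changed by 0.17 to 0.24 at 24 h and by -0.29 to -0.13 at 48 h, none called, though the blocked fit called number 2 at 48 h. Number 4 read 10.00, 9.90 and 9.93 with Aa, against 8.81, 9.33 and 8.57 in controls at 24 h. Its values at 48 h were 10.62, 10.37 and 10.21 with Aa, against 9.21, 9.12 and 8.54 in controls. It was higher at both times without overlap, by 1.04 ± 0.22 (adjusted p = 0.00613) and 1.44 ± 0.22 (adjusted p = 0.000699). The 24 h call was lost without replicate 1 in all groups.

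In the opposite direction, number 5 of SRSF1 read 5.57, 6.47 and 5.88 with Aa, against 7.47, 7.24 and 7.55 in controls at 48 h. The nearest arrays of the groups were 0.77 apart, all Aa arrays lay below the controls, and the change was -1.44 ± 0.22 (adjusted p = 0.000825), called under every alternative run. At 24 h it was -0.52 ± 0.22 (adjusted p = 0.119, from 0.0435 with the replicate block to 0.422). Number 7 changed by 0.60 (adjusted p = 0.114, from 0.0337 with the replicate block to 0.439) at 24 h and by 1.06 (adjusted p = 0.00868) at 48 h, where it read 6.16, 5.68 and 5.29 with Aa, against 4.85, 4.85 and 4.24 in controls. Without replicate 1 in all groups the 48 h call of number 7 was lost. Number 6 changed by 0.45 at 24 h and 0.90 at 48 h, neither called, though the blocked fit called it at 48 h (adjusted p = 0.0109). SRSF1 was the only family gene with called probe sets of both signs at 48 h without the block, and the blocked fit added HNRNPD and SRSF4.

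At 24 h that gene was HNRNPC, and the blocked fit added HNRNPD, SRSF1, SRSF3 and SRSF4. Of its 6 probe sets, numbers 1, 3 and 4 were higher by 0.37, 0.35 and 0.31. The dimmest, number 6, read 2.96, 4.31 and 3.25 with Aa, against 5.34, 5.57 and 3.91 in controls, and the groups overlapped. Its Aa means of 3.51 at 24 h and 3.46 at 48 h were below the limit of 4, which it passed through the control arrays, so it had to differ and its values are given as a description. The opposite signs of HNRNPC at 24 h rest on number 6 alone and are likewise only a description. The change of number 6, -1.43 ± 0.46, had an adjusted p of 0.0483, and 8 of 22 settings called it (adjusted p from 0.0116 to 0.41). At 48 h it read 3.69, 2.95 and 3.74 with Aa, against 5.76, 5.34 and 4.87 in controls, without overlap (-1.86 ± 0.46, adjusted p = 0.0111, lost without replicate 1 or without replicate 2 in all groups), while the other 5 probe sets were between -0.16 and 0.09.

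The single probe sets described next were chosen after their values were seen. SF3B3, a large SF3b subunit that also sits in chromatin-modifying complexes, had the largest change of all members in its probe set number 2. It read 7.52, 6.73 and 7.38 with Aa, against 5.06, 4.32 and 4.56 in controls at 24 h, and 8.29, 8.17 and 7.97 with Aa, against 5.36, 4.78 and 3.999 in controls at 48 h. The nearest arrays of the groups were 1.67 apart at 24 h and 2.60 apart at 48 h. The change was 2.56 ± 0.33 (adjusted p = 0.00042), or 5.91-fold, at 24 h and 3.43 ± 0.33 (adjusted p = 5.46e-05), or 10.8-fold, at 48 h, and it was called under every alternative run. Number 1 of SF3B3 read 11.35, 11.29 and 11.30 with Aa, against 11.23, 11.13 and 11.08 in controls at 24 h. Its change of 0.16 ± 0.09 (adjusted p = 0.216), and of 0.08 at 48 h (adjusted p = 0.539), was called under none of the alternatives.

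SRSF10 had the lowest adjusted p of all member probe sets in its number 5. It read 9.68, 9.45 and 9.47 with Aa, against 7.93, 7.90 and 7.79 in controls at 24 h (1.66 ± 0.11, adjusted p = 6.77e-06). The 48 h values were 8.62, 8.44 and 8.68 with Aa, against 7.40, 7.28 and 7.26 in controls (1.27 ± 0.11, adjusted p = 2.74e-05). Both groups were tight and more than 1 unit apart, and the other 4 probe sets of SRSF10 changed by 0.22 to 0.79 at 24 h and by 0.05 to 0.33 at 48 h.

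Number 4 of HNRNPDL read 11.23, 11.25 and 11.24 with Aa, against 9.38, 9.42 and 9.28 in controls at 24 h (1.88 ± 0.19, adjusted p = 9.41e-05). At 48 h it read 10.53, 10.81 and 10.47 with Aa, against 9.92, 9.95 and 9.17 in controls (0.92 ± 0.19, adjusted p = 0.00375). It was called under every alternative run, whereas the other 4 probe sets of the gene had changes from -0.28 to 0.43 at 24 h and from -0.35 to -0.11 at 48 h with none called in the fit over probe sets. SRSF11, an arginine/serine-rich protein that binds U2AF, also had a called probe set beside an uncalled brightest one. Its number 2 read 10.33, 10.33 and 10.28 with Aa, against 9.15, 9.46 and 8.97 in controls at 24 h (1.12 ± 0.14, adjusted p = 0.000314), and changed by 0.96 ± 0.14 at 48 h (adjusted p = 0.000513). Number 1 of SRSF11 changed by -0.04 and 0.04, neither called.

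SRSF8, an SR protein whose gene arose as a copy of SRSF2, was higher in its number 3. It read 8.87, 8.14 and 7.90 with Aa, against 6.92, 6.82 and 6.87 in controls at 24 h (1.44 ± 0.26, adjusted p = 0.0029, lost without replicate 1 in all groups), and changed by 0.80 at 48 h (adjusted p = 0.0343, lost under 7 alternatives, among them without replicate 1 or 3 of the Aa or of the control arrays, up to 0.198). SRSF7, which also takes part in mRNA export, had a probe set, number 3, that read 10.21, 11.10 and 10.16 with Aa, against 9.32, 9.31 and 8.84 in controls at 48 h (1.33 ± 0.28, adjusted p = 0.0043). At 24 h its change was 0.35 and was not called. Number 2 of SRSF7 changed by 0.64 at 24 h (adjusted p = 0.00409) and by -0.00 at 48 h (adjusted p = 0.993).

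HNRNPA2B1, which binds exonic silencers and takes part in mRNA transport, was lower in its number 3. It read 7.36, 8.05 and 6.90 with Aa, against 8.57, 9.04 and 8.52 in controls at 24 h (-1.27 ± 0.28, adjusted p = 0.00902). At 48 h the change was -0.88 ± 0.28 (adjusted p = 0.0351, lost under 9 alternatives, among them without replicate 2 or 3 of the Aa arrays or any of the control arrays, up to 0.148). The brightest probe set of the gene changed by -0.00 and -0.21, neither called. Number 6 of HNRNPD, an AU-rich element binder also called AUF1, read 7.66, 7.62 and 6.22 with Aa, against 8.71, 8.75 and 7.72 in controls at 24 h. Its change of -1.23 ± 0.49 was not called (adjusted p = 0.0961, from 0.00197 with the replicate block to 0.309), the nearest arrays of the groups were 0.06 apart, and replicate 3 was the lowest in both. Numbers 4 and 5 of HNRNPD were higher at 24 h by 0.78 and 0.62.

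**Figure D4:**
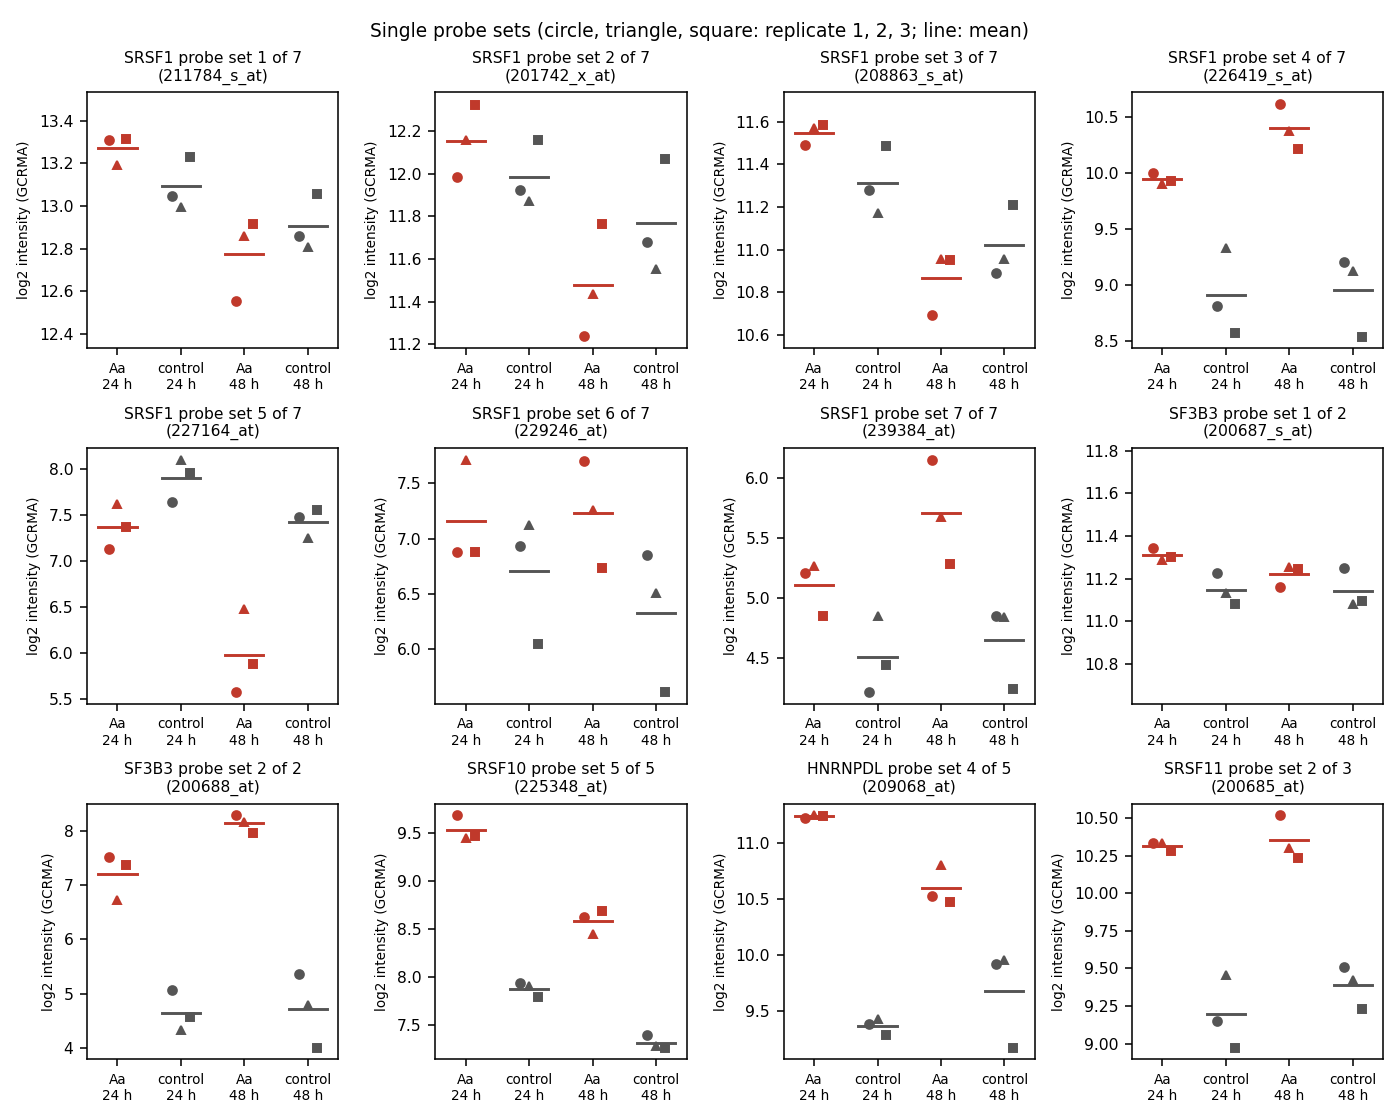
Log2 intensity of 12 single probe sets on each array, Aa in red left of its control in grey at each time; symbols mark the replicate number and lines the group means, and each panel has its own scale. The 7 SRSF1 probe sets go in different directions, while SF3B3 number 2, SRSF10 number 5, HNRNPDL number 4 and SRSF11 number 2 are higher on all Aa arrays at both times.

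Genes that act with these families were described from lists of general knowledge. Over 5 lists with 171 genes tested, 43 genes (25.1%) were called at 24 h and 63 (36.8%) at 48 h, near the 23.1% and 37.8% of all genes. Without replicate 1 in all groups 1 and 19 were called, and without replicate 3 in all groups 6 and 23. At 24 h 26 were called without replicate 1 and 28 without replicate 3 of the Aa arrays, and 27 without replicate 1 or without replicate 3 of the controls. At 48 h 37 were called without replicate 1 and 39 without replicate 3 of the Aa arrays, and 39 without replicate 2 of the controls. The blocked fit called 66 (38.6%) and 100 (58.5%), against 41.3% and 54.8% of all genes.

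Of 67 other spliceosome proteins, 11 were higher and 1 lower at 24 h, and 16 were higher and 3 lower at 48 h (blocked: 15 and 4, 34 and 3). That is 17.9% and 28.4% called, below the 23.1% and 37.8% of all genes. The median changes were 0.12 and 0.24. SART3, which recycles the U4/U6 particle, averaged 10.5 with Aa and 10.1 in controls at 24 h (0.47 ± 0.09, adjusted p = 0.00348), and changed by 0.59 at 48 h (adjusted p = 0.000578). PRPF4, a protein of the U4/U6 particle, averaged 11.0 with Aa and 10.2 in controls at 48 h (0.77 ± 0.10, adjusted p = 0.000287). DDX23, the helicase of the U5 particle, averaged 9.13 with Aa and 8.26 in controls at 48 h (0.87 ± 0.15, adjusted p = 0.00134). At 24 h PRPF38A and RBM25 were higher by 0.54 and 0.47.

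Of 42 other splicing regulators, 6 were higher and 3 lower at 24 h, and 8 were higher and 5 lower at 48 h (blocked: 12 and 5, 13 and 11), or 21.4% and 31.0% against 23.1% and 37.8% of all genes. MBNL3, of the muscleblind family, was lower at both times, by 0.93 ± 0.17 (adjusted p = 0.00377) and 1.22 ± 0.17 (adjusted p = 0.000493) on the log2 scale. PTBP2, a pyrimidine tract binder best known from neurons, was 1.02 ± 0.18 higher at 24 h (adjusted p = 0.00267). MATR3, a nuclear matrix RNA binder, was 1.32 ± 0.23 higher at 24 h (adjusted p = 0.00299). ILF2 and SAFB2 were higher at 48 h by 0.64 and 0.92.

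Of 29 SR-related proteins and kinases of SR proteins, 6 were higher and 2 lower at 24 h, and 11 were higher and 4 lower at 48 h (blocked: 10 and 2, 15 and 4), or 27.6% and 51.7% against 23.1% and 37.8% of all genes. TNPO3, the import receptor of SR proteins, averaged 11.2 with Aa and 10.7 in controls at 24 h (0.49 ± 0.10, adjusted p = 0.0055). TRA2B, an SR-like activator of exons, was 0.41 ± 0.08 higher at 24 h (adjusted p = 0.00574), and LUC7L2, a U1-associated protein, was lower by 0.82 on the log2 scale. CLK3, a kinase that phosphorylates SR proteins, averaged 8.20 with Aa and 6.97 in controls at 48 h (1.23 ± 0.20, adjusted p = 0.00119). SRPK1, the cytoplasmic SR protein kinase, was 0.45 ± 0.08 higher at 48 h (adjusted p = 0.00201), and LUC7L was 1.12 higher.

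Of 19 genes for snRNP assembly and the methylation of Sm proteins, 2 were higher and 7 lower at 24 h, and 3 were higher and 6 lower at 48 h, with medians of -0.03 at both times (blocked: 3 and 7, 3 and 7). That is 47.4% called at each time, against 23.1% and 37.8% of all genes, of which 12.8% and 20.1% were lower. NCBP2, the cap-binding subunit needed for export of snRNA, averaged 9.95 with Aa and 10.5 in controls at 24 h (-0.60 ± 0.13, adjusted p = 0.00685), and changed by -0.83 at 48 h (adjusted p = 0.000774). PHAX, the adaptor for snRNA export, was 0.63 ± 0.14 higher at 24 h (adjusted p = 0.0082), and SNUPN, which imports assembled snRNPs, was lower (-0.56 ± 0.13, adjusted p = 0.0109). At 48 h PRMT5, the methyltransferase of Sm proteins, was 0.62 ± 0.14 higher (adjusted p = 0.00685), and CLNS1A, which holds Sm proteins before assembly, was lower (-0.42 ± 0.10, adjusted p = 0.00952).

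Of 14 genes of the exon junction complex, the THO export complex and nonsense-mediated decay, 3 were higher and 2 lower at 24 h, and 5 were higher and 2 lower at 48 h (blocked: 4 and 4, 8 and 2), or 35.7% and 50.0% against 23.1% and 37.8% of all genes. UPF2, a core factor of nonsense-mediated decay, averaged 9.27 with Aa and 8.40 in controls at 24 h (0.87 ± 0.15, adjusted p = 0.00234), and changed by 0.64 at 48 h (adjusted p = 0.0066). UPF1, the helicase of this decay, was 1.23 ± 0.25 higher at 48 h (adjusted p = 0.00337). THOC1 was lower at both times (-1.16 ± 0.19, adjusted p = 0.00204, and -1.12 ± 0.19, adjusted p = 0.00137), and THOC5 changed by -0.89 at 24 h.

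**Figure D5:**
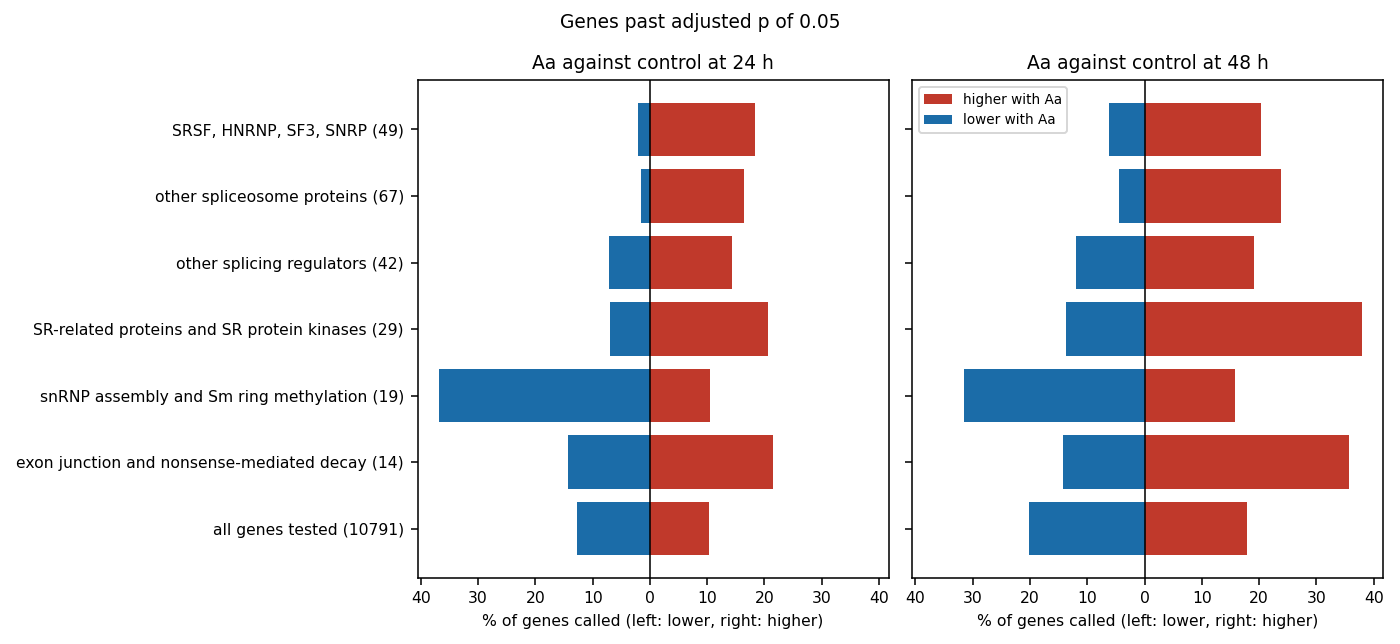
Percent of genes called with an adjusted p under 0.05 in the splicing factor families, in 5 lists of related genes and among all genes tested, at 24 h (left) and 48 h (right); bars to the right of 0 are genes higher with Aa, bars to the left genes lower with Aa, and the number tested is in parentheses. In the families 9 were higher and 1 lower at 24 h, and among the 19 genes of snRNP assembly 2 were higher and 7 lower.

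Since SRSF6, HNRNPH3, HNRNPUL2 and SF3A3 were higher at both times, the 250 bases before the annotated start of each are shown. They are from RefSeq's annotation of GRCh38.p14, 5′ to 3′ on the strand of the gene, with capitals marking the motif matches described next. SRSF6 is at chr20:43457646-43457895 (+), HNRNPH3 at chr10:68331443-68331692 (+), HNRNPUL2 at chr11:62727458-62727707 (-) and SF3A3 at chr1:37990023-37990272 (-).
SRSF6: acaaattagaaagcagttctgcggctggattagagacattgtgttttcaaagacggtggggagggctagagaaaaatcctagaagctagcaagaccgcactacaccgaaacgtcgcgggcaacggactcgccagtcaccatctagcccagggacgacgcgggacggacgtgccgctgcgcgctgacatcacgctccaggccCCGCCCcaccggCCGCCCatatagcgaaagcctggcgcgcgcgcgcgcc
HNRNPH3: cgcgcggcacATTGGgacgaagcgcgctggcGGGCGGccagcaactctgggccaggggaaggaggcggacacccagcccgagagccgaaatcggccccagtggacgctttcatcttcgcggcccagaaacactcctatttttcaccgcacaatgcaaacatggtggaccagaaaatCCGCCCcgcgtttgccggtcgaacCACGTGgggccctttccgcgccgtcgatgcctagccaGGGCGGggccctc
HNRNPUL2: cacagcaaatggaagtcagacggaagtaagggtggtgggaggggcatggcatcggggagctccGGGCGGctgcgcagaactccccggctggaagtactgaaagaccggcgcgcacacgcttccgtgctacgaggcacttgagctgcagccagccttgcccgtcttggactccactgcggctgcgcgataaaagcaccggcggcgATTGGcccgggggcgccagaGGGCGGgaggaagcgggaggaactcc
SF3A3: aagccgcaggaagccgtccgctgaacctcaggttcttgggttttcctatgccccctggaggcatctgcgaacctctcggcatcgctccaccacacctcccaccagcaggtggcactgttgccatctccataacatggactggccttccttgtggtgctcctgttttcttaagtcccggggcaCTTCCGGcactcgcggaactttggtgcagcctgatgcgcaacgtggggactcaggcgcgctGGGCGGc

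The motifs searched, on both strands, were the ETS core CCGGAAG, the GC box GGGCGG, the CCAAT box CCAAT, the E-box CACGTG, the E2F sites TTTCCCGC and TTTGGCGC, the YY1 site AAGATGGC, the cyclic AMP response element TGACGTCA and the TATA box TATAAA, and none of the matches shown overlap. SRSF6 holds 2 GC boxes, HNRNPH3 a CCAAT box, 3 GC boxes and an E-box, HNRNPUL2 2 GC boxes and a CCAAT box, and SF3A3 an ETS core and a GC box. Of the 49 family genes 46 matched the table of 35116 promoters, and their median GC content was 62.4%, against 58% over all. For each of the 46 only the first promoter listed was used. All promoters of the table entered the comparison, whether or not their gene was past the limit. A comparison with genes past the limit alone was not made. The ETS core was in 18 of the 46 (39.1%), against 8.52% of all promoters in the table, and the GC box in 28 (60.9%), against 42.6%. The CCAAT box was in 41.3% against 32%, the E-box in 13% against 6.34%, and the TATA box in 13% against 10.7%. The E2F sites were in 2 and 1 of the 46, against 1.39% and 0.55% of all. The YY1 site was in 1 (2.17%), against 1.36%, and the cyclic AMP response element in none, against 1.65%. Of the 14 matched genes that were called higher at either time, 5 held the ETS core and 11 the GC box. A match is a description of the sequence.

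The family genes are short. Their median span from start to end was 14.2 kb, from 0.69 to 60.3 kb, and over all genes tested the median was 30.5 kb. Over the 49 genes the rank correlation of span and log2 change was -0.07 at 24 h and -0.11 at 48 h, given as a description of genes measured on the same 12 arrays.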

How the data were processed

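The authors deposited 1 table of log2 values for 54675 probe sets on 12 Affymetrix arrays, normalised with GCRMA per the submitters' processing notes, which give no version. The values ran from 0.82 to 16.2. Probe sets with 1 gene symbol in the annotation were used (41091 besides 62 controls), and 1801 with several symbols and 11777 with none were left out. Of those used, 41037 symbols were updated through gene identifiers to the GRCh38.p14 annotation and 54 were kept. A mean log2 of at least 4 over 12 arrays left 19623 probe sets and 10791 genes, each gene by its brightest probe set.

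All arrays entered 1 limma 3.58.1 model with a mean for each group (R 4.3.3, lmFit and eBayes, 8 residual degrees of freedom), run separately over genes and over probe sets. Contrasts were Aa minus control for each time, the 48 h effect minus the 24 h effect, and 48 h minus 24 h in control cells. P-values were 2-sided and Benjamini-Hochberg adjusted over all features of a fit, and called means an adjusted p under 0.05. Rose, fell, higher and lower are used of called features where a test is given. The code was tested on simulated data.

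Deviations from the group mean were compared between arrays of different groups. The r lay between 0.349 and 0.619 in 18 pairs that share a replicate number and between -0.490 and -0.0107 in the 36 that do not. Each of the 12 arrays was closest to an array of its own number. The number was therefore used as a block in an alternative, a pairing read from the data, since the labels do not explain the numbers. Over the family members alone the 2 ranges of r overlapped, at 0.0231 to 0.813 and -0.664 to 0.338. Other alternatives were median centring, quantile normalisation, no filter or a mean of at least 6, a variance trend, fitting 2 groups only, leaving out probe sets with shared-sequence names, averaging a gene's probe sets, and leaving out single arrays or replicate numbers.

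Members and lists were chosen with earlier results of these data known. Values in every array are given for up to 3 called genes with the largest change per family and time, for genes with called probe sets of opposite sign, and for the other called genes and the single probe sets singled out in the text. Of each related list up to 3 called genes with the smallest p per time are named. For arrays, their number limits the precision.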

Additional observations from a re-analysis of the deposited data

How the results depend on the processing

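The counts of family genes called at 24 h and 48 h stayed within 1.5 times the reported 10 and 13 under 9 of 9 and 8 of 9 of the alternatives that kept every array. The exceptions, and those of the other counts, were the replicate block and the removal of probe sets with shared-sequence names. The block gave 24 genes at 48 h, 3 for the difference between times, and 11 in control cells over time. It gave 49 probe sets at 24 h, 57 at 48 h, 11 for the difference and 22 in control cells, and 66 and 100 related genes at 24 h and 48 h. Without shared-sequence names 18 and 20 probe sets were called at 24 h and 48 h, out of the 60 that remain, 40 related genes at 48 h, and 7 and 6 genes had all probe sets on the same side of 0. With arrays left out, singly or by replicate number, the family genes called ranged from 1 to 10 at 24 h, from 4 to 15 at 48 h, from 0 to 1 for the difference between times and were 0 in controls. Probe sets called ranged from 7 to 31, 15 to 36, 0 to 1 and 0 to 1, related genes from 1 to 46 and 19 to 64, and genes with probe sets on the same side from 13 to 17 and 14 to 17. Every lowest count of calls in Aa comparisons came from leaving out replicate 1 in all groups. The counts over all genes with arrays left out are not given. Turned in sign were HNRNPA1 at 24 h (-0.44) and HNRNPM at 48 h (-0.021) without shared-sequence names, which rest on another probe set there. So was HNRNPDL at 48 h, at 0.92 on its other probe set against -0.30 on the brightest. Averaged over their probe sets, SRSF4 gave -0.18 and HNRNPC -0.30 at 48 h. In each of these the reported value or the alternative one was called. Values that were called neither way turned in sign too. SRSF4 gave -0.34 at 24 h when averaged. Without shared-sequence names HNRNPA1 gave -0.13 at 48 h, and HNRNPM and SNRPA1 gave -0.20 and -0.51 at 24 h. The number of arrays, 3 a group, limits the precision of every value.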
